A study of Homo sapiens with 6 samples.

Results

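The mitochondrial ribosomal proteins are the protein subunits of the ribosome that works inside mitochondria. They were taken as every gene of the count table whose symbol is Mrpl or Mrps followed by a number and, for the Mrps18 paralogs, a letter, which gave 78 of 22989 genes. Their transcripts were compared between 3 libraries labelled LINC00115 KD, in which a short hairpin RNA targets the long noncoding RNA LINC00115, and 3 libraries labelled WT. Whether the WT libraries carry a control shRNA is not given in the sources used here. Both groups are described as breast cancer stem cells (BCSC) of paclitaxel-resistant MDA-MB-231, a human line of triple-negative breast cancer, sorted for aldehyde dehydrogenase activity. All libraries thus share the line, the drug resistance and the sort. The paper names the hairpin of this comparison as sh115-2, 1 of the 2 it calls sh115-1 and sh115-2, while the KD libraries are themselves named sh115-1 to sh115-3. Whether the libraries of a group come from separate clones or cultures is not given. The p-values below therefore measure the spread between these libraries, which may be technical.

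Several facts of the whole table bear on every value. The samples are labelled human, but the gene symbols are in mouse style. Of them, 4648 are Gm with a number and 1129 end in Rik. Symbols with no human coding sequence of that name also had counts, among them Mterf1b, with 62 to 89 in a library. Kap had 0 counts in each WT library and 311 to 466 in each KD library. Genes were thus counted under mouse names, and the species of the reads was not tested. Of the 78 member symbols, 77 equal a current human symbol apart from case. The table lists no gene as LINC00115, so the knockdown itself was not checked, and every direction rests on the group labels. Library totals lay between 36979221 and 38799331 counts. Of the 11 genes listed for the labelled cells, Esr1, Pgr and Erbb2 were listed as receptors expected to be low. Vim, Cd44, Krt8 and Krt18 were well counted, while Epcam had 0 to 5 counts and the aldehyde dehydrogenase gene Aldh1a3 0 to 4 counts in a library. Of the 8 tested, 7 (87.5%) were higher in KD, beside 36.7% of all genes, and these 7 include Erbb2 and Esr1. Also among them were Krt8 (1.59-fold), Krt18 (1.83-fold), Egfr (1.62-fold) and Aldh1a1 (3.53-fold, with mean levels of 0.327 and 1.16 CPM). Of the listed receptors, Erbb2 had means of 17.0 CPM in WT and 27.6 CPM in KD and Esr1 of 0.698 and 2.56 CPM. Pgr, which was not tested, had 3, 2 and 0 counts in the WT libraries and 0 in each KD library. Markers of other tissues differed between the groups. The 12 lung markers summed to between 8.32 and 8.57 CPM (counts scaled to a TMM-adjusted library total of 1e6) in the WT libraries and to between 79.8 and 90.0 CPM in the KD libraries, and the 11 kidney markers to between 16.8 and 19.6 and between 41.6 and 45.5 CPM. Most of the WT lung sum was Rtkn2 (means of 6.5 CPM in WT and 6.0 CPM in KD), which did not pass the test. Most of the WT kidney sum was Aqp1 (8.2 and 16.4 CPM) and Cubn (8.3 and 6.1 CPM), and Cubn was lower in KD. Scgb1a1, Sftpc and Umod had 0 counts in each WT library and were higher in KD. The 11 leukocyte markers summed to between 71.9 and 86.0 CPM in WT and between 144.3 and 159.7 CPM in KD. Most of that rise was S100a8 (means of 33.0 and 95.2 CPM). Lyz2 (0.795 and 6.58 CPM), Cd74 (0.928 and 3.27 CPM) and S100a9 (0.0176 and 1.47 CPM) were also higher in KD. Of the 6 leukocyte markers tested, 4 (66.7%) were higher and 0 lower, beside 36.7% and 36.7% of all genes. Cd68 overlapped (42.8 and 47.2 CPM), and Ptprc, Csf1r, Adgre1 and Itgam were near 0 in both groups. Cd3e was at 0 in all 6 libraries. The 6 endothelial markers summed to between 0.318 and 0.664 and between 57.0 and 59.9 CPM, most of it Cdh5 in KD, while Emcn had 1 count in 1 KD library. The part of such RNA in the results below was not tested. In bulk RNA, fewer cells of a type and less RNA per cell cannot be told apart.

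The mitochondrial ribosome translates the few messages of mitochondrial DNA, which encode core subunits of the respiratory chain and of ATP synthase. Its proteins are encoded in the nucleus, made on cytosolic ribosomes and imported. Some descend from the bacterial ribosome and are named here uL, bL, uS or bS as in the shared nomenclature, and others, named mL or mS, have no bacterial protein at the same place and are counted here as specific to mitochondria. A small subunit reads the message at its decoding centre, and a large subunit forms the peptide bond and releases the chain at the inner membrane.

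Promoters are shown for the members with the largest fall, MRPS21, and the largest rise, MRPL36. Also shown are MRPL51 and MRPL3, a member lower and a member higher in KD that both hold the ETS motif as searched here. Each is the human gene's 250 bases before the RefSeq start, 5′ to 3′ on the gene's strand, in GRCh38.p14, and capitals mark the motifs searched.
MRPS21 (chr1:150293611-150293860, plus strand): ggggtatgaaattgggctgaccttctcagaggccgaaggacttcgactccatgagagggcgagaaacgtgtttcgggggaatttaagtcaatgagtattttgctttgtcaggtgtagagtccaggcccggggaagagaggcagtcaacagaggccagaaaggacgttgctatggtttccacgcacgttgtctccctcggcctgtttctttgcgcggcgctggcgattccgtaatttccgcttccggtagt
MRPL51 (chr12:6493263-6493512, minus strand): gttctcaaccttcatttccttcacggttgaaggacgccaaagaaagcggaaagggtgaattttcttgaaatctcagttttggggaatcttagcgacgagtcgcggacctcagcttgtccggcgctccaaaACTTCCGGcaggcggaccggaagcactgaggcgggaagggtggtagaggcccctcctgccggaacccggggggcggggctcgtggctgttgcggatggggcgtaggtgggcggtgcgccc
MRPL36 (chr5:1799838-1800087, minus strand): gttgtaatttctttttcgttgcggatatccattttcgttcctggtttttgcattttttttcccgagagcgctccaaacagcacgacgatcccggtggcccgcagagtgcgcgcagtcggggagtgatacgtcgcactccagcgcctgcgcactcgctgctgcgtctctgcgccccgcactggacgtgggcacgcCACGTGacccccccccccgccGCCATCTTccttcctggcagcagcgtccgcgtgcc
MRPL3 (chr3:131502972-131503221, minus strand): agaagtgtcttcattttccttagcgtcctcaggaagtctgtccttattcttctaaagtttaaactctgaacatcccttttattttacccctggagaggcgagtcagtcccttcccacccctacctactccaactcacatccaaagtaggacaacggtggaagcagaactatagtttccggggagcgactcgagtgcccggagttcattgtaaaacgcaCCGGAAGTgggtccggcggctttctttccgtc

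The motifs searched, each on both strands, were NRF1 (GCGCA followed directly by TGCGC), ETS (CCGGAAGT), the E-box CACGTG and YY1 (AAGATGGC). None of them is contained in another. Only exact matches were counted, so a site that differs by a letter was scored as absent, and the counts below are not counts of all possible sites. NRF1 and the ETS factor GABP are known regulators of nuclear genes for mitochondrial proteins. Of 78 members, 69 matched a promoter. The ETS motif was in 9 of these (13.0%) and in 3.64% of 27305 promoters of the same length, and the YY1 motif was in 5 (7.25%) and in 1.37%. The E-box was in 6 members (8.70%) and in 6.49% of all promoters, and NRF1 in 1 member and in 1.13%. The members that held the ETS motif were not those of a single direction, since 2 of 32 lower members, 4 of 25 higher members and 3 of 12 members that passed in neither direction held it. The YY1 motif was in 3 lower and 2 higher members. In MRPL36 the E-box and the YY1 motif began 56 and 35 bases before the start. The ETS motif began 32 bases before the start in MRPL3 and 120 bases before it in MRPL51. MRPS21 held no exact match to these motifs. Near its end it holds gcttccgg, which differs from the reversed ETS motif ACTTCCGG in its first letter. The promoters are human while the table's symbols are in mouse style, so the matches describe the human genes only.

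Transcripts of the mitochondrial ribosome did not move as a block. All 78 members passed the filter on low counts, with 306 to 8500 counts in a library. At an adjusted p under 0.05 (edgeR's quasi-likelihood test, Benjamini-Hochberg over 13497 genes), 35 members (44.9%) were lower and 26 (33.3%) were higher in the KD libraries, beside 36.7% and 36.7% of all genes tested (73.4% in either direction). The remaining 17 members passed in neither direction, with log2 fold changes between −0.14 and 0.10. The median log2 fold change of the members was −0.07 and that of all genes −0.01.

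The changes were small for this comparison. Only 2 members, Mrps21 and Mrpl14, passed the study's threshold of a fold change over 2 as lower, beside 9.98% of all genes called lower and 10.2% called higher, and the largest rise was 0.59 on the log2 scale, that of Mrpl36. A change over 1.5-fold was measured for 10 members (12.8%), 8 lower and 2 higher, and for 40.1% of all genes. Members had at least 306 counts in a library, while all genes tested include less counted ones, so these shares are not matched for counts. Against a fold change of 1.2 (edgeR's glmTreat), 17 members were lower and 12 higher, beside 25.8% and 25.7% of all genes. The middle 50% of the members lay between log2 fold changes of −0.32 and 0.23, and that of all genes between −0.47 and 0.44.

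Replicates were close. The coefficient of variation of a member's CPM had a median of 5.59% over the WT libraries and 4.38% over the KD libraries, and the standard error of a member's log2 fold change lay between 0.04 and 0.11. The groups did not overlap for 60 members, 33 with all KD libraries below all WT libraries and 27 with all above, beside 37.8% and 37.8% of all genes tested.

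**Figure D1:**
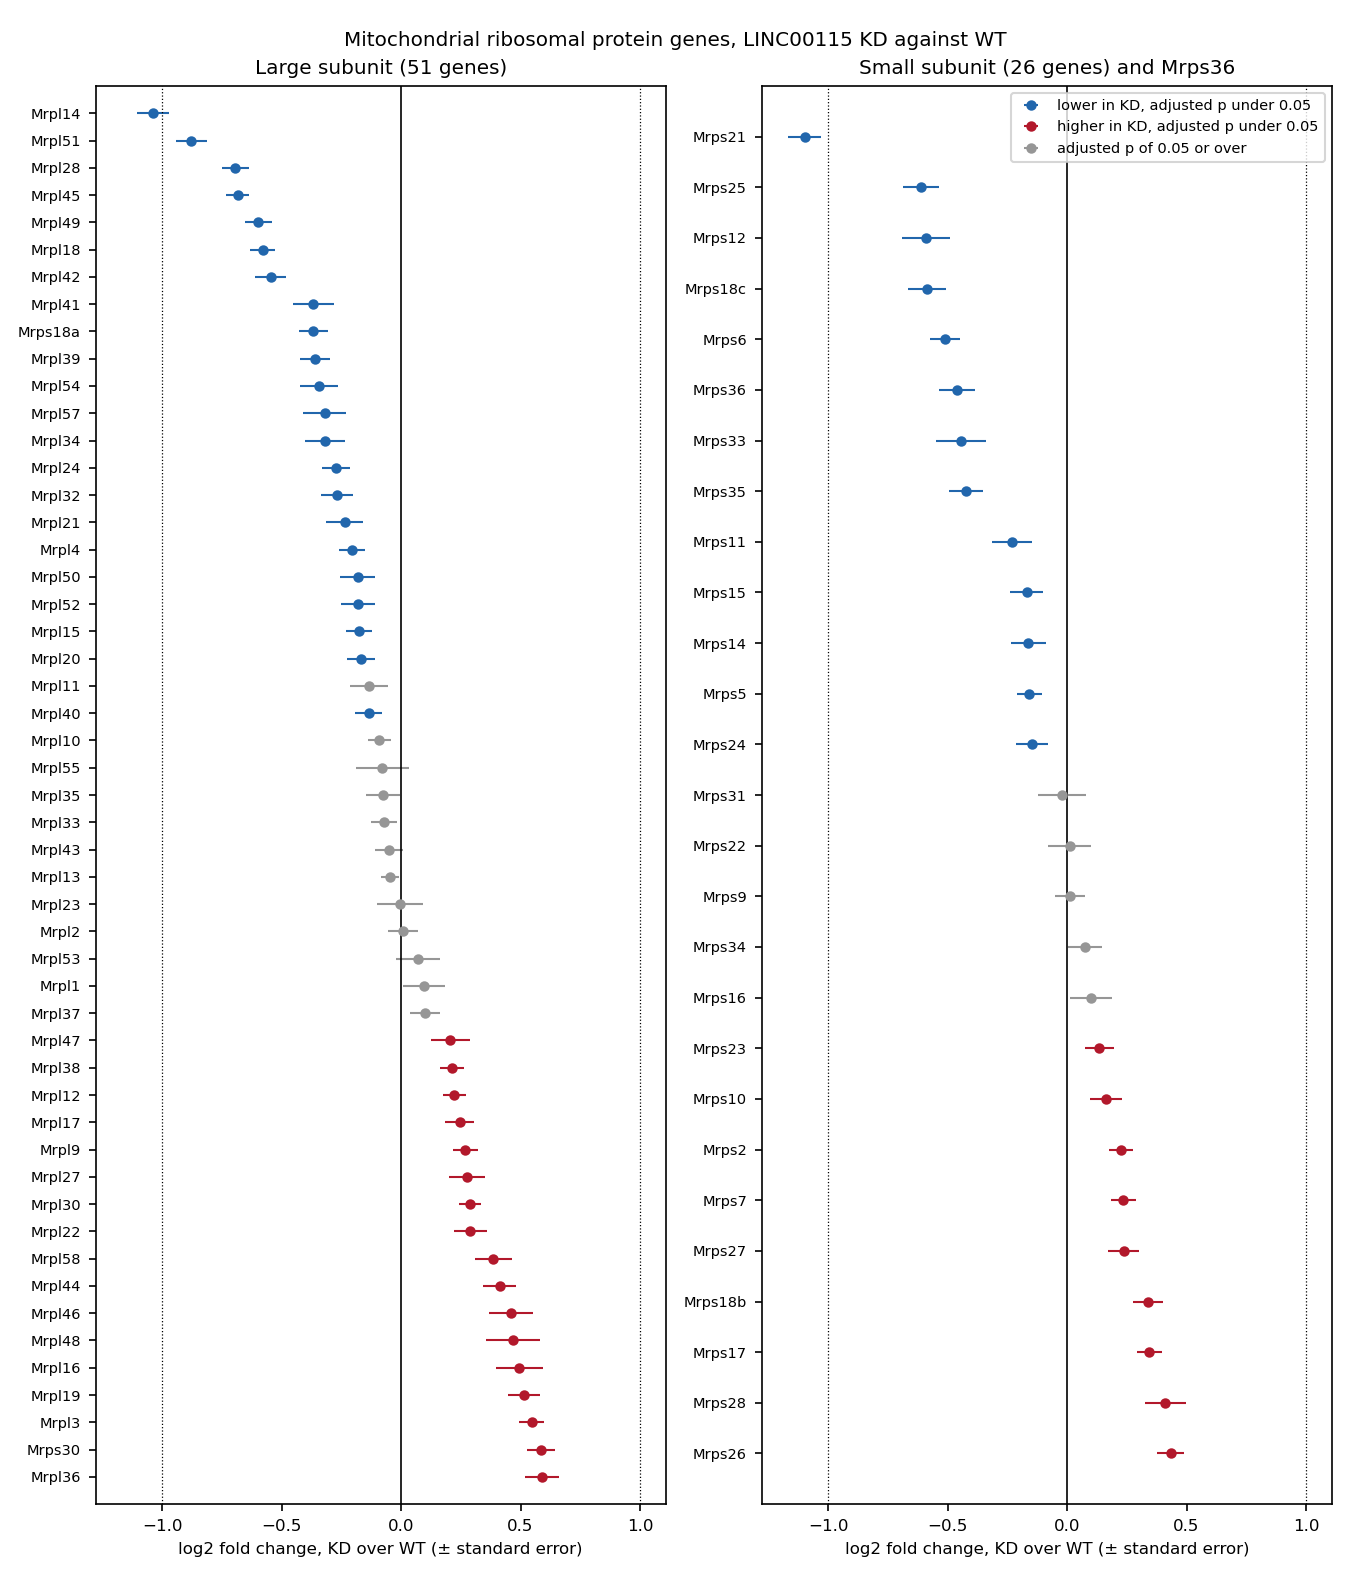
Log2 fold change of each of the 78 members, LINC00115 KD over WT, with its standard error (edgeR, 3 libraries a group), for the large subunit on the left and the small subunit with Mrps36 on the right; dotted lines mark a fold change of 2. Lower and higher members appear in both subunits, and Mrps21 and Mrpl14 lie past the dotted line.

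In the large subunit, 22 of 51 members (43.1%) were lower and 17 (33.3%) were higher, with a median log2 fold change of −0.08. In the small subunit, 12 of 26 (46.2%) were lower and 9 (34.6%) were higher, with a median of −0.01. Of all genes tested, 36.7% were lower and 36.7% higher. Mrps30 and Mrps18a are counted with the large subunit, where their proteins (mL65 and mL66) lie despite their names. Mrps36 is counted with neither, because its protein belongs to the 2-oxoglutarate dehydrogenase complex and not to the ribosome, and it was lower, with a change of −0.46 ± 0.08 (SE) on the log2 scale. Of 46 members with a bacterial homologue, 19 (41.3%) were lower and 16 (34.8%) higher (median −0.07). Of 31 members specific to mitochondria, 15 (48.4%) were lower and 10 (32.3%) higher (median −0.05).

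Mrps21 (bS21m), a small protein of the small subunit, had 39.3, 40.5 and 44.1 CPM in the WT libraries and 18.4, 19.7 and 19.7 CPM in the KD libraries. Its lowest WT library was far above its highest KD library, and the change was −1.10 ± 0.07 (SE) on the log2 scale (adjusted p = 7.75e-16 in edgeR). Mrpl14 (uL14m), which lies at the face between the subunits and is bound by the assembly factor Malsu1, had 49.8, 49.1 and 51.3 CPM in WT and 25.7, 21.9 and 25.6 CPM in KD. The KD mean was 0.487 of the WT mean, a change of −1.04 ± 0.07 (SE) on the log2 scale (adjusted p = 8.13e-16 in edgeR). This value depended on KD replicate 2, the lowest of the 3, since without it the change was −0.96, under a fold change of 2, and 1 member was called.

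Mrpl51 (mL51), specific to mitochondria, had 64.6, 64.1 and 66.2 CPM in WT and 40.2, 33.4 and 32.4 CPM in KD, a change of −0.88 ± 0.06 (SE) on the log2 scale. Its KD libraries spread more than its WT libraries and stayed below them. Mrpl28 (bL28m) fell from 72.6, 76.2 and 81.5 CPM to 49.9, 48.6 and 43.9 CPM, a change of −0.69 ± 0.06 (SE) on the log2 scale. Mrpl45 (mL45), which sits at the exit of the peptide tunnel toward the inner membrane, fell from 96.6, 89.4 and 95.4 CPM to 60.0, 57.7 and 57.5 CPM, a change of −0.68 ± 0.05 (SE) on the log2 scale. In both genes all WT libraries were above all KD libraries. Mrps25 (mS25) fell from 35.4, 38.5 and 38.7 CPM to 24.9, 27.6 and 21.3 CPM, a change of −0.61 ± 0.08 (SE) on the log2 scale. These 4 genes had adjusted p-values between 9.61e-15 and 1.07e-08 in edgeR's quasi-likelihood test.

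The largest rise was that of Mrpl36 (bL36m), a very short protein of the large subunit, from 20.3, 20.4 and 20.9 CPM in WT to 31.1, 31.3 and 30.2 CPM in KD, a change of 0.59 ± 0.07 (SE) on the log2 scale (adjusted p = 5.58e-09 in edgeR). Both groups were tight and lay apart. Mrps30 (mL65) rose from 36.2, 42.0 and 41.2 CPM to 58.8, 60.6 and 60.0 CPM, a change of 0.59 ± 0.06 (SE) on the log2 scale. Mrpl3 (uL3m), near the centre where the peptide bond is formed, rose from 48.5, 51.3 and 50.6 CPM to 75.6, 71.1 and 73.0 CPM, a change of 0.55 ± 0.05 (SE) on the log2 scale. No KD library of these genes reached down to a WT library.

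Mrpl19 (bL19m), another protein of the face between the subunits, rose from 25.9, 24.9 and 25.6 CPM to 38.8, 35.5 and 34.9 CPM, a change of 0.51 ± 0.07 (SE) on the log2 scale. Mrpl16 (uL16m) rose from 11.4, 14.01 and 13.0 CPM to 19.6, 18.3 and 16.2 CPM, a change of 0.49 ± 0.10 (SE) on the log2 scale, and Mrpl48 (mL48), of the central protuberance, from 8.12, 9.40 and 10.7 CPM to 13.4, 13.5 and 12.1 CPM, a change of 0.47 ± 0.11 (SE) on the log2 scale. Mrpl48 had the fewest counts of all members and the widest error. All 6 of the largest rises were genes of the large subunit, which holds 51 of the 77 members that are subunits. Their adjusted p-values lay between 1.34e-11 and 0.000404 (edgeR's quasi-likelihood test).

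**Figure D2:**
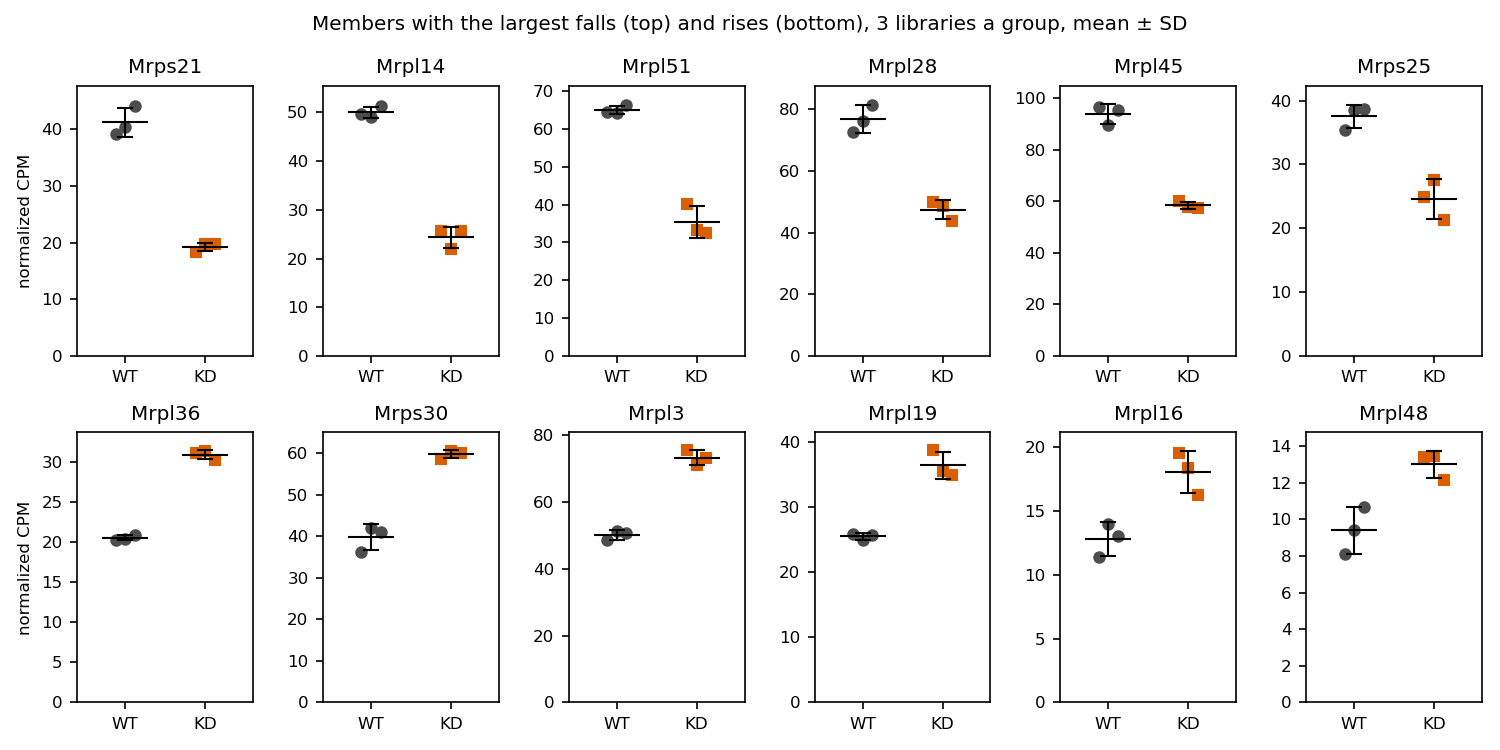
Normalized CPM in each library for the 6 members with the largest falls (top row) and the 6 with the largest rises (bottom row); points are libraries, bars the mean ± SD of 3 libraries, and each axis starts at 0. In every panel the 3 KD libraries lie apart from the 3 WT libraries.

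The 3 Mrps18 genes are paralogs related to bacterial S18, of which Mrps18c alone is counted with the bacterial homologues, and they went both ways. Mrps18c (bS18m) had 29.6, 28.9 and 30.1 CPM in WT and 17.2, 20.3 and 21.6 CPM in KD, a change of −0.58 ± 0.08 (SE) on the log2 scale (adjusted p = 6.1e-08 in edgeR). Mrps18a (mL66), of the large subunit, fell from 50.9, 53.1 and 60.2 CPM to 41.9, 44.1 and 41.3 CPM, a change of −0.37 ± 0.06 (SE) on the log2 scale (adjusted p = 2.13e-06 in edgeR). Mrps18b (mS40) instead rose, from 30.7, 32.5 and 33.2 CPM to 41.1, 40.6 and 40.3 CPM, a change of 0.34 ± 0.06 (SE) on the log2 scale (adjusted p = 1.14e-05 in edgeR). For each paralog the groups did not overlap. How the counting treated reads that match more than 1 paralog is not given in the sources used here.

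Members with well known roles also divided. Mrps12 (uS12m), the decoding-centre protein, fell from 17.2 ± 1.6 to 11.4 ± 0.749 CPM (SD, n = 3 libraries each), a change of −0.59 ± 0.10 (SE) on the log2 scale. Mrpl58 (mL62), a peptidyl-tRNA hydrolase that frees stalled chains, rose from 19.1 ± 0.677 to 24.95 ± 0.302 CPM, a change of 0.39 ± 0.08 (SE) on the log2 scale. Mrpl44 (mL44), whose mutation causes a cardiomyopathy in humans, rose from 25.04 ± 0.781 to 33.4 ± 1.39 CPM, a change of 0.41 ± 0.07 (SE) on the log2 scale. Each of these differences exceeded the SD of both groups several times.

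Mrpl12 (bL12m), the stalk protein that recruits translation factors, was among the 3 members with the most counts and rose from 107.1 ± 8.49 to 125.0 ± 3.28 CPM, a change of 0.22 ± 0.05 (SE) on the log2 scale (adjusted p = 7.59e-05 in edgeR). Mrpl38 (mL38), also among them, rose from 73.9 ± 6.06 to 85.6 ± 2.67 CPM, a change of 0.21 ± 0.05 (SE) on the log2 scale. The member with the most counts, Mrpl13 (uL13m), had 206.9, 205.7 and 225.0 CPM in WT and 199.9, 213.7 and 203.7 CPM in KD. Its groups overlapped, and the change of −0.05 ± 0.04 (SE) on the log2 scale (adjusted p = 0.285 in edgeR) did not pass the test. Mrps22 (mS22), whose mutation causes a mitochondrial disease, had 15.6 ± 0.511 CPM in WT and 15.7 ± 0.662 CPM in KD, a difference smaller than either SD (adjusted p = 0.915, edgeR).

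Other small subunit members filled the range between these. Mrps6 (bS6m, log2 fold change −0.51), Mrps33 (mS33, −0.45) and Mrps35 (mS35, −0.42) were lower, and Mrps26 (mS26, 0.43), Mrps28 (bS1m, 0.41) and Mrps17 (uS17m, 0.34) were higher, all past an adjusted p of 0.05 in edgeR; these 6 were named after their values were seen.

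Summed over the members, the level changed little. The 51 large subunit genes summed to 2199, 2269 and 2346 CPM in WT and to 2170, 2142 and 2163 CPM in KD, a ratio of the means of 0.950. The 26 small subunit genes summed to 911, 936 and 973 CPM in WT and to 941, 925 and 936 CPM in KD, a ratio of 0.993. The groups did not overlap for the large subunit sum and overlapped for the small subunit sum. Within the large subunit, the 21 genes specific to mitochondria summed to between 804 and 866 CPM in WT and between 737 and 741 CPM in KD, while the 30 large subunit genes with a bacterial homologue summed to between 1395 and 1480 and between 1402 and 1428 CPM.

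Members were also counted by coding length. The human genes of the 78 member symbols have a longest coding sequence of 207 to 1449 bases. Of 19 members with at most 450 coding bases, 13 were lower and 3 higher (median log2 fold change −0.35), and of 20 members with over 450 and at most 600 bases, 10 were lower and 5 higher (median −0.14). Of 23 members with over 600 and at most 900 bases, 7 were lower and 13 higher (median 0.21), and of 16 longer members, 5 were lower and 5 higher (median 0.01). All genes below are those tested with a human coding length in the same ranges, the last of which ends at 1500 bases. They also had their lowest median among the shortest, −0.28 over 583 genes with at most 450 bases, with 54.5% lower and 23.2% higher. In the next range 43.4% of all genes were lower and 31.4% higher (median −0.08), beside 50.0% and 25% of the members. Between 600 and 900 bases 35.8% of all genes were lower and 38.5% higher (median 0.02), beside 30.4% and 56.5% of the members. Between 900 and 1500 bases the shares were 35.7% and 40.7% (median 0.04), beside 31.2% and 31.2% of the members. Genes over 1500 bases were in no range. Across genes, which are not independent replicates, Spearman's rho of coding length with the log2 fold change was 0.36 over the 78 members. It was 0.20 over 80 cytosolic ribosomal protein genes with a coding length. Over 10808 genes it was 0.07, but these were not limited to the members' range of lengths, so the values are not like for like. The part of length in the members' changes was not tested. Mrpl36, with 309 bases, was among the 3 short members that were higher.

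Of the 5 subunits that carry other names, 4 (80.0%) were lower and 0 higher, beside 36.7% and 36.7% of all genes. Dap3 (mS29), a GTP-binding protein of the small subunit, fell from 103.2 ± 4.52 to 72.0 ± 1.41 CPM (SD, n = 3 each), a change of −0.52 ± 0.05 (SE) on the log2 scale. Gadd45gip1 (mL64) fell by 0.46 on the log2 scale, Ptcd3 (mS39), a pentatricopeptide protein where the message enters, by 0.42, and Chchd1 (mS37) by 0.33. Aurkaip1 (mS38), with 35.5 ± 0.491 and 36.4 ± 1.54 CPM, did not pass the test (adjusted p = 0.632, edgeR). With these 5, all 82 subunit proteins listed for the mitochondrial ribosome were measured.

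Genes that build and serve the mitochondrial ribosome were counted in the same way, beside 36.7% of all genes higher and 36.7% lower. Of 27 assembly factors, 16 (59.3%) were higher and 2 (7.41%) lower, with a median log2 fold change of 0.36. Rcc1l, needed for large subunit assembly, rose from 15.7, 17.2 and 15.1 CPM to 46.9, 41.7 and 49.8 CPM, a change of 1.53 ± 0.08 (SE) on the log2 scale, and Fastkd2, an RNA-binding protein of mitochondrial RNA granules, rose by 0.86. Mterf4 and Nsun4, whose proteins act together in assembly, were lower, with log2 fold changes of −0.49 and −0.27. Nsun4 did not pass the threshold without KD replicate 3 (adjusted p = 0.0951, edgeR), without WT replicate 1 (0.111) or with DESeq2 (0.0541). Of 20 mitochondrial aminoacyl-tRNA synthetases and amidotransferase subunits, 12 (60.0%) were higher and 3 (15%) lower (median 0.28). Mars2, which charges methionine, changed by 1.63 and Qrsl1, of the glutaminyl amidotransferase, by 1.35 on the log2 scale, while Cars2 (−0.42), which charges cysteine, was lower.

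Of 18 translation factors, 9 (50.0%) were higher and 5 (27.8%) lower (median 0.08). Pdf, the peptide deformylase (0.83), and Taco1, an activator of cytochrome oxidase translation (0.60), were at the upper end, and the initiation factor Mtif2 (−0.64) and the release factor Mtrf1l (−0.49) at the lower end. Of 16 genes that keep and express mitochondrial DNA, 7 (43.8%) were higher and 5 (31.2%) lower (median 0.25), with Elac2 (0.89) and Top1mt (0.85) highest and Mterf2 (−0.86) and Hsd17b10 (−0.76) lowest. Of 19 genes of protein import, 6 (31.6%) were higher and 7 (36.8%) lower (median −0.01). The shares of the translation, mitochondrial DNA and import genes lay nearer to those of all genes than the shares of the assembly factors and synthetases did. Among these the short TOM subunits Tomm6 (−0.87) and Tomm7 (−0.54) were lowest and the receptor Tomm70a (0.80) and the chaperone Hspa9 (0.55) highest. The table lists no transcript of mitochondrial DNA, so its messages and rRNAs were not analysed here.

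Of the regulators of mitochondrial biogenesis, 6 of 9 tested (66.7%) were higher and 0 lower, beside 36.7% and 36.7% of all genes. Myc, which drives ribosome and mitochondrial genes, had 193.6, 187.7 and 201.6 CPM in WT and 368, 355.3 and 380.0 CPM in KD, a change of 0.92 ± 0.04 (SE) on the log2 scale. The coactivators Ppargc1b and Pprc1 rose by 2.20 and 1.16 on the log2 scale and Nrf1 by 0.38. Gabpb1 and Gabpb2 were also higher, by 0.29 and 0.36. Gabpa (−0.02), Esrra (−0.06) and Yy1 (−0.06) did not pass the test (adjusted p = 0.752, 0.421 and 0.157, edgeR). Ppargc1a, with 0 counts in each WT library and 2 in each KD library, was removed by the filter.

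The cytosolic ribosomal proteins and nuclear genes of the respiratory chain were set beside the members. Of 83 cytosolic ribosomal protein genes tested, chosen by symbol, 75 (90.4%) were lower and 1 (1.2%), Rpl36al, was higher (median log2 fold change −0.50). Of all genes tested, 36.7% were lower and 36.7% higher. The cytosolic ribosomal protein genes summed to between 42820 and 45420 CPM in WT and between 31450 and 32060 CPM in KD. Of 90 respiratory chain and ATP synthase genes tested, chosen by symbol, 63 were lower and 9 higher (median −0.39). These include the 8 Ndufaf genes, assembly factors of complex I, of which 3 were lower and 4 higher, and the pseudogene Ndufab1-ps. Without them, 60 of 81 subunit genes (74.1%) were lower and 5 (6.17%) higher (median −0.43). The members had a median of −0.07 in the same fit. The difference between these groups was not tested.

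**Figure D3:**
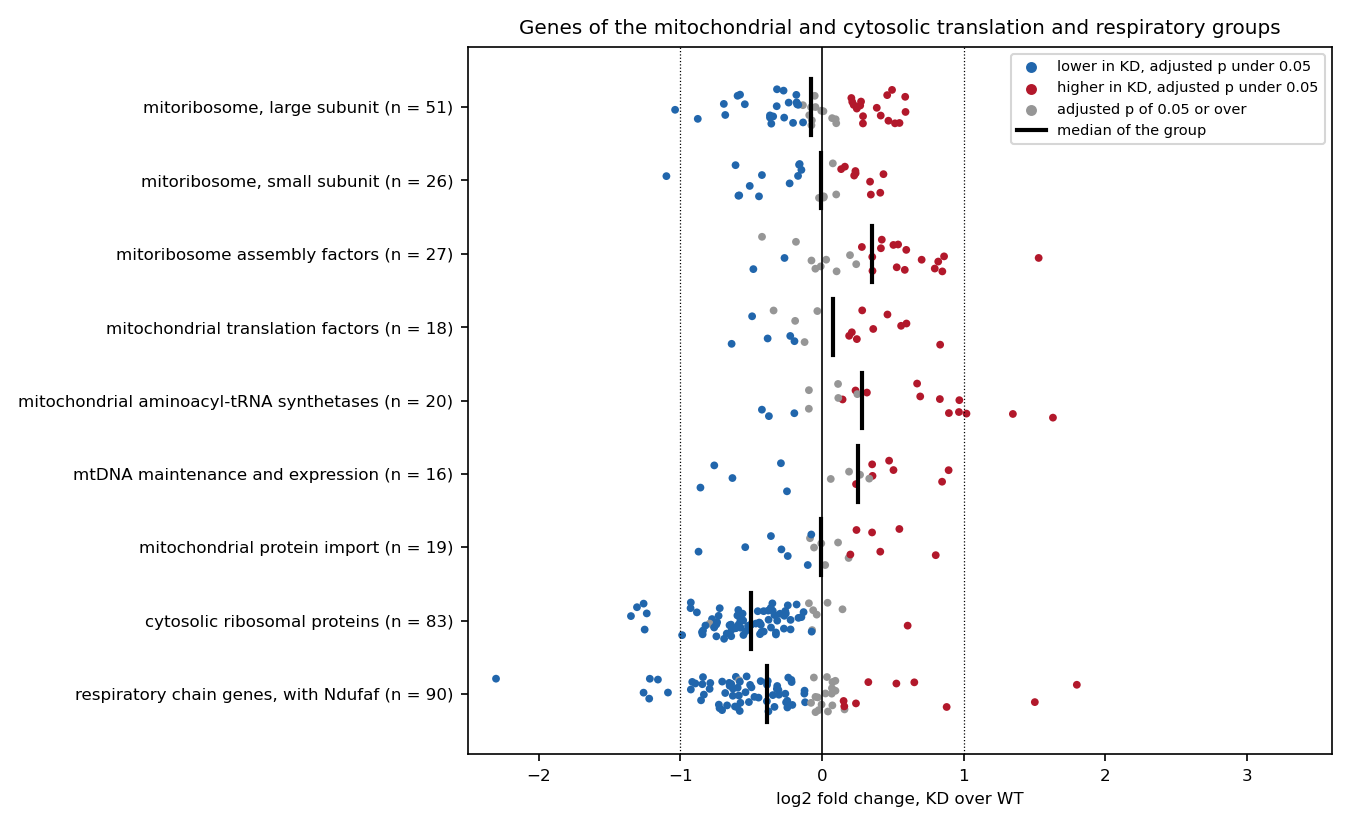
Log2 fold change (KD over WT) of each gene tested in the mitochondrial ribosome subunits and 7 related gene groups, with the median of each group as a black line and dotted lines at a fold change of 2. The subunit medians are −0.08 and −0.01, the mitoribosome assembly factors have a median of 0.36 and the cytosolic ribosomal proteins of −0.50.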

How the data were processed

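The authors trimmed adapters and, by the paper's methods, mapped reads with HISAT2 to hg19. The submitters' processing notes name hg38, HISAT2, featureCounts and DESeq2. Neither the annotation nor strand use is given in the sources used here. The deposited table holds whole-number read counts of 22989 genes in 6 libraries without normalization, and each column was assigned by its name, which is that sample's description (0 columns were not used). Testing used edgeR 4.0.16 in R 4.3.3 (filterByExpr with a minimum count of 10 and a minimum total of 15, TMM, quasi-likelihood test, Benjamini-Hochberg over 13497 genes, group only). The thresholds of an adjusted p under 0.05 and a fold change over 2 are the paper's. A standard error is the absolute log2 change over the root of its F statistic. The pipeline was tested on simulated data. CPM values use TMM-scaled totals (factors 0.990 to 1.01). Chi-square per degree of freedom between libraries of 1 group was 3.88 to 7.60, above sampling noise, so each counted as a separate library. Coding lengths are from GENCODE v44 lifted to GRCh37, as the longest coding sequence per symbol, and promoters from RefSeq.

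The members and lists were chosen with earlier results of these data known. Members named are those called, the 6 largest rises and falls whose groups did not overlap (a minimum of 100 counts in the higher group), the Mrps18 paralogs, Mrpl12, Mrps12, Mrpl58, Mrpl44 and Mrps22, and the 3 with the most counts, 22 in all. In other lists, the 2 largest changes each way were named, and a set of regulators; 1 such gene is not reported here. DESeq2 1.42.0, other scalings and filters, a replicate block, a test against a fold change of 1.2 and each library left out were alternatives.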

Additional observations from a re-analysis of the deposited data

How the results depend on the processing

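The counts of lower and higher members kept their size under scaling by DESeq2's size factors, upper quartile or library size, with other filters, with DESeq2's Wald test and with each library left out, within 1.5 times the values reported. The exception was the test against a fold change of 1.2, with 17 lower and 12 higher. With each library left out, 28 to 34 members were lower, 24 to 26 were higher, 17 to 22 large subunit and 9 to 11 small subunit members were lower, and 1 or 2 members were called lower, 1 without KD replicate 2. The median log2 fold change of the members was −0.0935 with library size only and −0.115 with upper quartile scaling, where the median of all genes also moved, to −0.03 and −0.05. It ranged from −0.0798 to −0.0519 with a library left out, lowest in size without WT replicate 3. Mrpl13 passed the threshold with upper quartile scaling alone (log2 fold change −0.09, adjusted p = 0.0417, edgeR). Genes near 0 changed sign: Mrps22 with library size only (−0.0079), with upper quartile scaling (−0.0295) and without KD replicate 1 or WT replicate 1 (−0.0164 and −0.0143, up to 0.0431 with another library left out), Aurkaip1 with upper quartile scaling (−0.0067), and Gabpa without KD replicate 3 or WT replicate 3 (0.0115 and 0.0085, down to −0.0376 with another left out). Libraries share replicate numbers, but same-numbered libraries did not deviate together (correlations between −0.0202 and 0.0135), so the numbers do not pair them. Leaving the Ndufaf genes and Ndufab1-ps out of the respiratory chain genes, an alternative chosen after seeing the data, gave 60 lower and 5 higher in place of 63 and 9. With the replicate block, 35 members were lower and 25 higher, with a median of −0.0731.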
